A study of Rattus norvegicus with 6 samples.

Results

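Genes of the ciliated airway cell and of the axoneme, the microtubule core of the motile cilium, were followed in rat lung after inhaled particles. The set held 10 genes of 24956 genes tested: Foxj1, Dnai1, Dnali1, Dynlrb2, Tekt1, Tekt2, Tekt4, Rsph1, Spag6 and Ak7. They were chosen as known ciliated cell and axoneme genes, with earlier results of these data known. A gene entered when the gene name in the array files, or an older synonym of it, matched. This gave 11 probes, since Dnali1 had 2, and all 10 genes passed the filter on low signal. Every one of the 11 probes was well above background on all 23 arrays.

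Male Wistar rats, 9 weeks old at the start, breathed clean air (control), an aerosol of C60 fullerene, a cage-shaped carbon molecule, or ultrafine nickel oxide (NiO, named Uf-NiO and used as the positive control), for 6 hours a day and 5 days a week over 4 weeks. Lungs were perfused with saline and taken 3 days or 33 days (called 1 month) after the last exposure, and right-lung RNA was hybridised to 1-colour Agilent arrays. The groups used held 3 control, 2 C60 and 4 NiO arrays at 3 days, and 4 control, 4 C60 and 4 NiO arrays at 1 month. No group carried a genetic change. For the 3-day C60 group, the label names 2 animals while 4 arrays came with it. Arrays 1 and 2 matched the authors' deposited ratio column (median absolute log2 difference 0.000823, against 0.11 for all 4), so these were used. The design text gives 4 right lungs per group for the arrays, from which 1 array was taken to stand for 1 rat, so p-values rest on the spread among these arrays alone.

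Between 57.4% and 78.3% of spots were well above background on each of the 23 arrays. Every group had its own slide, and every time its own scan day. Within a time, effects of slide and of exposure cannot be told apart, nor can those of scan day and of time. Levels are log2 of the processed signal, with each array's 75th percentile set to 0. Under this scaling all genes had a median log2 fold of -0.12 for NiO against control at 1 month, against 0.02 after quantile normalization, so values relative to that median are also given. A gene was called when its adjusted p in the limma fit across all genes (Benjamini-Hochberg) was under 0.05. The whole lung holds few ciliated cells, and in such bulk samples fewer ciliated cells and less RNA per ciliated cell cannot be told apart. The lung label was borne out by its own markers: all 15 genes on a list of alveolar type II cell markers were measured, and none of them was dim on all arrays of any group.

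Motile cilia beat on the ciliated cells that line the airways and carry mucus and trapped particles out of the lung. Their axoneme is built from outer doublet microtubules around a central pair, with dynein motors on the doublets that make them slide, radial spokes that pass signals from the central pair to the motors, and tektin filaments inside the doublets. FOXJ1, a forkhead transcription factor, switches on the motile cilium genes together with RFX factors, which bind X-box sequences near their starts.

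Promoter sequences are shown because FOXJ1 and RFX factors are known regulators of motile cilium genes. The RefSeq table (build GRCr8) held a promoter for 8 of the 10, and had no entry for Foxj1 and Rsph1. The 250 bases before each start were searched on both strands for GTAAACA, the letters bound by FOXJ1-type forkhead factors, and for GTTGCC, letters of an RFX site. GTTGCC was found in 3 of the 8 promoters (Tekt1, Tekt2 and Spag6) and in 9.89% of all 33469 promoters of the table, and GTAAACA in 1 of the 8 (Dnali1) and 3.21% of all. A search for X-box letters, GTTGC and GCAAC with 3 bases of any kind between them, was added after the promoters had been looked at. These letters read the same on both strands, and at most 1 mismatch in the 10 fixed letters was found in 4 of the 8 promoters (Tekt2, Tekt4, Dnai1 and Dynlrb2), in 0.986% of all promoters, and in 16 of the 346 promoters (4.62%) of 236 other cilium genes. The Tekt2 X-box contains its GTTGCC match on the other strand. The Dynlrb2 entry begins at a start inside the gene's annotated span and is not printed, and Ak7 had none of these letters. In the windows below, which end before each gene's start, capitals mark the X-box letters in Tekt2, Tekt4 and Dnai1, GTTGCC in Spag6 and Tekt1, and the forkhead letters, read on the other strand, in Dnali1. A match is a description of the letters, with no measure of binding. Among the genes with X-box letters, Tekt4 and Dynlrb2 were called lower in NiO lungs at 1 month, Tekt2 higher and Dnai1 neither. The part of these letters in the differences between groups was not tested.
Tekt2, chr5:143907725-143907788, minus strand: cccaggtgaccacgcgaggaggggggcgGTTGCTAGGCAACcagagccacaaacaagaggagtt
Tekt4, chr10:14992207-14992275, plus strand: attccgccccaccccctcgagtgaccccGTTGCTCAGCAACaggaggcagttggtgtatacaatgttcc
Dnai1, chr5:61525952-61526020, plus strand: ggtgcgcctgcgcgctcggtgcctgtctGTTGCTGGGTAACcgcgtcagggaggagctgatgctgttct
Spag6, chr11:97677748-97677809, plus strand: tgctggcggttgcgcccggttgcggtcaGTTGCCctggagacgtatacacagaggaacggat
Tekt1, chr10:57479127-57479188, minus strand: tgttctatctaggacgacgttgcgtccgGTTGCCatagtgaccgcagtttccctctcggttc
Dnali1, chr5:142612121-142612183, minus strand: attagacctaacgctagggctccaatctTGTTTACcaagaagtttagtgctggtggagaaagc

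Compared with clean air, 6 of the 10 genes were lower and 1 was higher in NiO lungs at 1 month, beside 18.9% of all genes called lower and 11.9% called higher in the same fit. Over all genes that was 4721 lower and 2980 higher, and 3020 and 3747 after quantile normalization. The genes that fell were Foxj1, Dynlrb2, Tekt1, Tekt4, Spag6 and Ak7, by 1.36-fold to 1.95-fold, and Tekt2 rose 1.31-fold. The median log2 fold of the 10 genes was -0.46, beside -0.12 for all genes tested. At 3 days only Dnai1 fell in NiO lungs (1 of 10, beside 7.86% of all genes lower), and none rose, beside 11.1% of all genes higher.

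**Figure D1:**
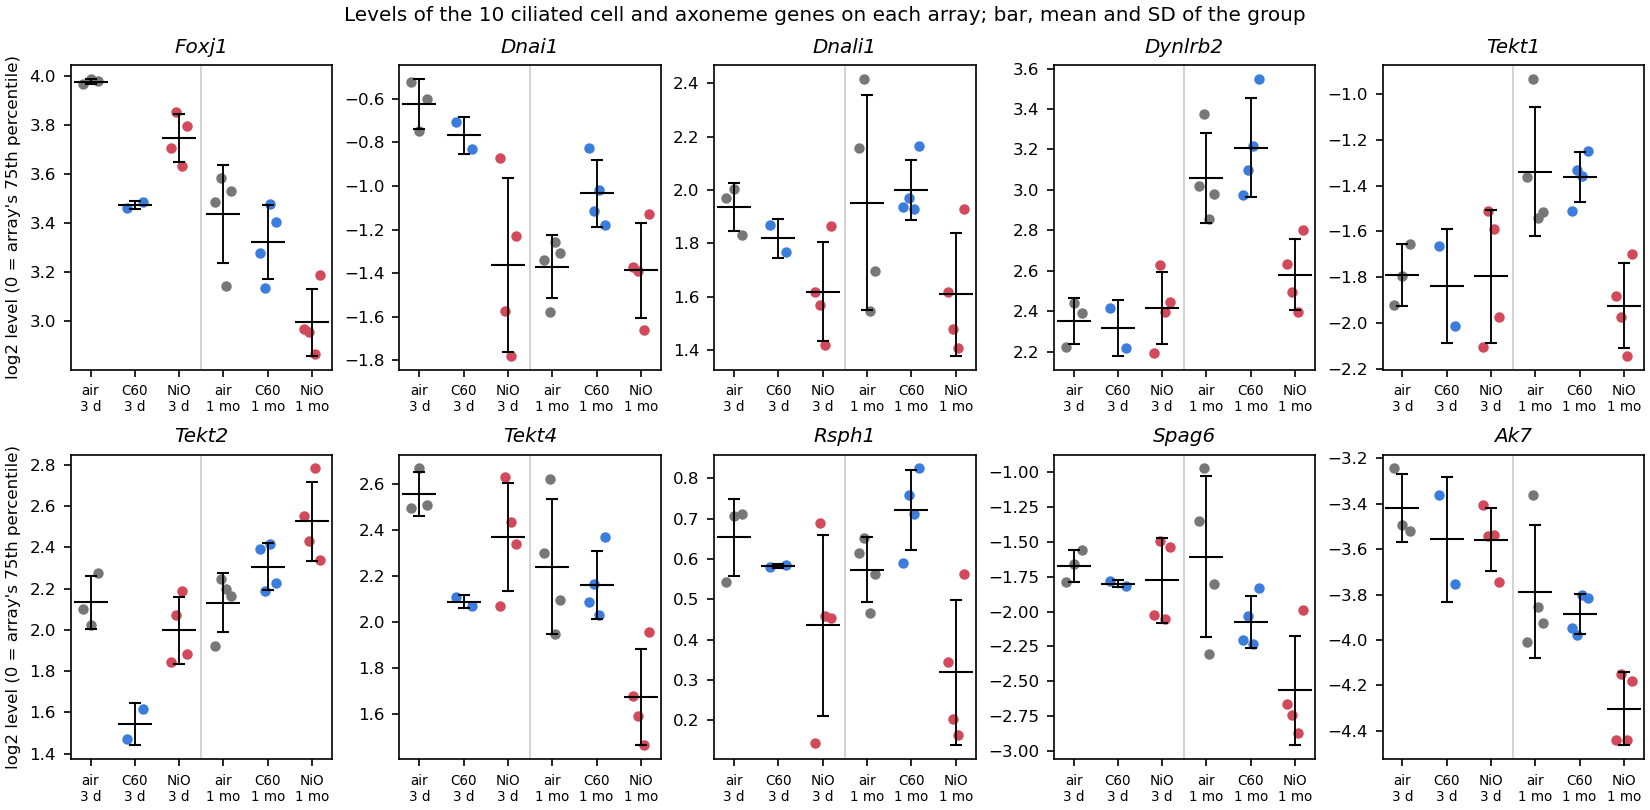
Levels of the 10 genes, as log2 signal relative to the 75th percentile of the array (vertical axis, its range set per gene), on each of the 21 arrays used (points) in the 6 groups (horizontal axis; air is the clean air control), with the mean and SD of each group. All genes but Tekt2 and Dynlrb2 have their lowest group mean in NiO lungs at 1 month, some of them close to the next group, while Tekt2 has its highest there.

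Foxj1, the master transcription factor of motile cilia, read 3.49, 3.59, 3.14 and 3.53 on the 1-month control arrays and 2.97, 2.96, 2.87 and 3.19 on the 1-month NiO arrays. NiO array 4 lay above control array 3, so the groups overlapped at that point, and the other NiO arrays were below all controls. The log2 fold was -0.44 (SE 0.11, n = 4 and 4, limma adjusted p = 0.00622), or -0.32 relative to all genes. The call held under all 16 alternatives run for it, with adjusted p from 4.65e-05 to 0.0357.

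At 3 days the Foxj1 groups did not overlap at all. Control arrays read 3.97, 3.99 and 3.98, NiO arrays 3.71, 3.86, 3.63 and 3.80, and the C60 arrays 3.46 and 3.49. The NiO difference did not pass (log2 fold -0.23, SE 0.11, limma adjusted p = 0.157), whereas Foxj1 fell after C60 (log2 fold -0.50, SE 0.14, n = 2 and 3, limma adjusted p = 0.0388). The C60 call rested on 2 arrays and was lost when any of the 5 arrays was left out (adjusted p from 0.088 to 0.224), under quantile normalization (0.0679) and in a fit of the compared groups alone (0.0625).

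The dynein genes differed among themselves. Dynlrb2, a roadblock-type dynein light chain, read 3.02, 3.38, 2.86 and 2.98 in 1-month controls and 2.63, 2.50, 2.40 and 2.80 in 1-month NiO lungs. All 4 NiO arrays lay below all 4 controls (log2 fold -0.48, SE 0.14, limma adjusted p = 0.0176). C60 arrays at 1 month read 2.98, 3.10, 3.21 and 3.55, and all of them were above every NiO array. Dynlrb2 was therefore also lower in NiO than in C60 lungs (log2 fold -0.63, SE 0.14, limma adjusted p = 0.0325), the single call among the 10 genes in that comparison, where 0.393% of all genes were lower and 0.833% higher. That call was lost under 8 of 16 alternatives, with adjusted p up to 0.142.

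Dnai1 encodes an intermediate chain of the outer dynein arm, whose loss causes primary ciliary dyskinesia in humans, and its NiO difference passed at 3 days, not at 1 month. At 3 days control arrays read -0.52, -0.75 and -0.60 and NiO arrays -0.87, -1.57, -1.78 and -1.23, with no overlap. The log2 fold was -0.74 (SE 0.17, n = 4 and 3, limma adjusted p = 0.00826), a 1.67-fold fall. NiO arrays 2 and 3, which had the lowest readings, also had the lowest 75th percentile signals of the 21 arrays (372 and 336). Without these 2 arrays the log2 fold was -0.43 and the call was lost (adjusted p = 0.133), and a fit of the compared groups alone also lost it (0.134).

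At 1 month Dnai1 read -1.34, -1.58, -1.25 and -1.31 in controls, -0.83, -1.11, -1.02 and -1.18 after C60 and -1.37, -1.39, -1.66 and -1.13 after NiO. The NiO arrays spread around the controls (log2 fold -0.02, SE 0.16, limma adjusted p = 0.944). All C60 arrays were above all controls, but the difference did not pass (log2 fold 0.34, SE 0.16, limma adjusted p = 0.139).

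Dnali1, a light intermediate chain linked to the inner dynein arms, read 1.97, 2.00 and 1.83 in 3-day controls and 1.62, 1.57, 1.42 and 1.87 after NiO. At 1 month controls read 2.16, 2.42, 1.55 and 1.70 and NiO arrays 1.62, 1.48, 1.41 and 1.93. Controls at 1 month ranged more widely than those at 3 days (SD 0.40, n = 4, against 0.09, n = 3), and the groups overlapped at both times. The log2 folds of -0.32 (SE 0.18) and -0.34 (SE 0.16) did not pass (limma adjusted p = 0.207 and 0.113). The dimmer Dnali1 probe gave differences of group means of -0.17 and -0.43, the same direction.

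The tektins, filament proteins inside the doublet microtubules, did not move as a family. Tekt1 read -1.36, -0.93, -1.54 and -1.52 in 1-month controls and -1.88, -1.98, -2.14 and -1.70 after NiO, with no overlap (log2 fold -0.59, SE 0.16, limma adjusted p = 0.0108). Tekt4 read 2.30, 2.62, 1.95 and 2.10 in the controls and 1.68, 1.59, 1.47 and 1.96 after NiO, and only NiO array 4 reached the control range, just above the lowest control (log2 fold -0.57, SE 0.15, limma adjusted p = 0.00956).

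Tekt2 read 1.92, 2.24, 2.20 and 2.16 in the 1-month controls and 2.55, 2.43, 2.78 and 2.34 in NiO lungs, so that every NiO array was above every control (log2 fold 0.39, SE 0.11, limma adjusted p = 0.0159). C60 arrays at 1 month lay between and overlapped both groups, at 2.39, 2.19, 2.42 and 2.23. At 3 days the order was different: controls read 2.10, 2.02 and 2.27, NiO arrays 1.85, 2.07, 2.19 and 1.88, and C60 arrays 1.47 and 1.62, below all others. Tekt2 thus fell after C60 at 3 days (log2 fold -0.59, SE 0.15, n = 2 and 3, limma adjusted p = 0.0241), and the call was lost without C60 array 1 (0.23) or array 2 (0.0774), without control array 1 (0.0578) or array 3 (0.0916), and in a fit of the compared groups alone (0.0852).

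The difference between times was itself tested for each particle. The NiO effect on Tekt2 was higher at 1 month than at 3 days by 0.53 (SE 0.17, limma adjusted p = 0.0212), and the C60 effect by 0.76 (SE 0.18, limma adjusted p = 0.0152). The C60 call was lost without C60 array 1 of day 3 (0.0817), and the NiO call without control array 3 of day 3 (0.0624). Tekt2 alone among the 10 genes passed in the C60 difference, where 4.23% of all genes were called higher and 6.18% lower. Tekt4 after C60 at 3 days read 2.11 and 2.07, against 2.50, 2.67 and 2.51 in controls, without overlap, and did not pass (log2 fold -0.47, SE 0.19, limma adjusted p = 0.189).

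Rsph1, a head component of the radial spoke, read 0.61, 0.65, 0.47 and 0.56 in 1-month controls and 0.35, 0.20, 0.16 and 0.56 after NiO. NiO array 4 lay within the control range and the other 3 below it, and the difference did not pass (log2 fold -0.25, SE 0.11, limma adjusted p = 0.0872). After C60 the 1-month arrays read 0.59, 0.76, 0.71 and 0.82, all above the NiO arrays (NiO against C60 log2 fold -0.40, SE 0.11, limma adjusted p = 0.0971).

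Spag6, a protein of the central pair, had the largest fitted fall of the 10 genes in NiO lungs at 1 month. Its probe carries an older name and maps to the gene now called Spag6l. A probe described as the Spag6 paralogue was well above background on 2 of 23 arrays and was left out. Spag6 read -1.35, -0.97, -2.31 and -1.80 in 1-month controls, -2.20, -2.03, -2.24 and -1.83 after C60 and -2.66, -2.74, -2.87 and -1.99 after NiO. The controls ranged over more than 1 log2 unit, and NiO array 4 lay above the lowest control. The log2 fold was -0.96 (SE 0.24, limma adjusted p = 0.00792), and the C60 fold of -0.47 (SE 0.24) did not pass (0.165).

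Ak7, an adenylate kinase of motile cilia, read -4.01, -3.36, -3.85 and -3.92 in 1-month controls and -4.44, -4.15, -4.44 and -4.18 after NiO, with no overlap (log2 fold -0.52, SE 0.14, limma adjusted p = 0.0106). This call depended on the scaling: the log2 fold was -0.02 after quantile normalization (adjusted p = 0.954) and -0.27 with normexp background correction (0.0765).

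Of the other 1-month NiO calls, quantile normalization also ended those of Tekt1 (log2 fold -0.45, adjusted p = 0.0514) and Spag6 (-0.74, 0.0528), and normexp that of Dynlrb2 (-0.29, 0.0897). Leaving out NiO array 3 ended the calls of Tekt2 (0.061) and Dynlrb2 (0.0587), and leaving out control array 2 that of Dynlrb2 (0.0669). Foxj1, Tekt4 and Tekt2 kept their calls under every scaling tried.

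**Figure D2:**
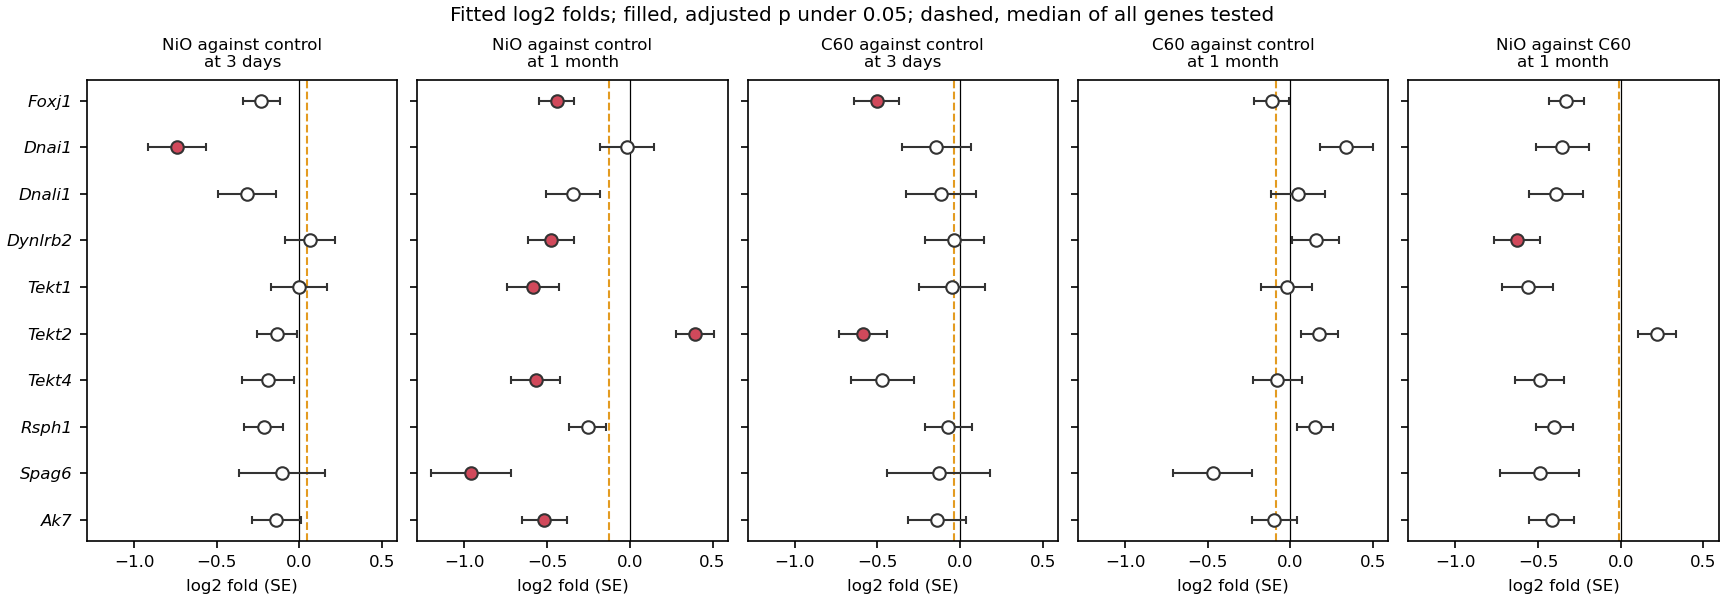
Fitted log2 fold (horizontal axis) with its SE for each of the 10 genes (vertical axis) in 5 comparisons; filled points have an adjusted p under 0.05, and the dashed line marks the median of all genes tested. In NiO lungs at 1 month 6 filled points lie left of 0 and Tekt2 right of it, and after C60 at 1 month no point is filled.

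At 1 month after C60 the limma fit called 0 of the 10 genes, beside 7.29% of all genes higher and 12.4% lower. The fit counted 0 of the 10 and 9104 of all 24956 genes at an unadjusted p under 0.05. With array weights it called 1 of the 10, beside 3583 of all genes higher and 5768 lower. After C60 at 3 days 2 of 10 were lower and none higher, beside 1.99% and 2.94% of all genes. With all 4 C60 arrays in the fit, Foxj1 (log2 fold -0.53, adjusted p = 0.00364), Tekt2 (-0.49, 0.0123) and Tekt4 (-0.58, 0.0204) were called. In that comparison it called 1599 of all genes higher and 1360 lower. C60 arrays 3 and 4, which were otherwise not used, read 3.35 and 3.49 for Foxj1, 1.72 and 1.76 for Tekt2 and 1.84 and 1.92 for Tekt4, below all 3 controls in each case.

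NiO and C60 were also compared directly. At 3 days none of the 10 passed in the limma fit, beside 5.06% of all genes higher in NiO and 2.72% lower. The fit counted 3 of the 10 (Foxj1, Tekt2 and Dnai1) and 6740 of all genes at an unadjusted p under 0.05. Normexp background correction called 1 of the 10, array weights 2 and all 4 C60 arrays 3. Over all genes these settings called 651 higher and 411 lower, 5125 and 3306, and 3615 and 2336. At 1 month 9 of the 10 log2 folds were negative, and the median was -0.41, beside -0.01 for all genes tested. Apart from Dynlrb2, Tekt1 (log2 fold -0.56, SE 0.16, limma adjusted p = 0.099) and Rsph1 came closest. With array weights 9 of the 10 were called, beside 1401 of all 24956 genes higher and 1587 lower.

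The NiO effect at 1 month minus that at 3 days passed for 3 of the 10 genes. It was positive for Dnai1 (0.72, SE 0.24, limma adjusted p = 0.0251) and Tekt2, beside 14.4% of all genes, and negative for Dynlrb2 (-0.54, SE 0.21, limma adjusted p = 0.0476), beside 23.1%. The Dynlrb2 difference was lost under 16 of 24 alternatives. The Dnai1 difference was lost under 7 of 24, the lowest value being 0.41 without NiO arrays 2 and 3 of day 3 (adjusted p = 0.16), and that of Tekt2 under 1. Median shifts of all genes in this comparison differed between the 75th percentile scaling (-0.18) and quantile normalization (0.03), and the median of the 10 genes was -0.29 and -0.07.

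Control lungs themselves differed between the 2 times. At 1 month Dynlrb2 (log2 difference 0.71, SE 0.15, limma adjusted p = 0.00122) and Tekt1 (0.45, SE 0.17, 0.0357) were higher than at 3 days, beside 27.7% of all genes. Foxj1 (-0.54, SE 0.11, limma adjusted p = 0.00104), Dnai1 (-0.75, SE 0.17, 0.00224) and Ak7 (-0.37, SE 0.15, 0.0495) were lower, beside 18.3%. The 3-day control arrays of Foxj1 and Dnai1 were all above the 1-month ones, and those of Dynlrb2 all below. All genes shifted by a median of 0.19 in this comparison and by 0.05 after quantile normalization, under which the Tekt1 call was lost (adjusted p = 0.0649). The Tekt1 call was lost under 7 and that of Ak7 under 9 of 15 alternatives, whereas those of Dynlrb2, Foxj1 and Dnai1 held under all 15. Age, scan day and slide move together here.

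The wider cilium genes were read from 8 lists, the 10 genes left out. Of 287 genes listed, 194 were on the array and 181 were tested. In NiO lungs 28 were lower (15.5%, beside 7.86% of all genes) and 9 higher (4.97%, beside 11.1%) at 3 days, with a median log2 fold of -0.19 beside 0.04 for all genes. At 1 month 34 were lower (18.8%, beside 18.9%) and 9 higher (4.97%, beside 11.9%), with a median of -0.15 beside -0.12. The 1-month share of lower genes was thus close to that of all genes. Relative to the median of all genes, the 1-month medians were -0.02 for the wider lists and -0.33 for the 10 genes. Under quantile normalization the counts were 39 lower and 8 higher at 3 days, beside 2640 and 2228 of all 24956 genes. At 1 month they were 30 lower and 14 higher, beside 3020 and 3747 of all genes (median -0.09, beside 0.02). Leaving out 1 array moved the 1-month count of lower genes between 20 (without control array 2) and 48 (without control array 3). It was 21 without NiO array 3. The 3-day count moved between 8 (without control array 1) and 52 (without NiO array 1), and it was 5 without NiO arrays 2 and 3. With the compared groups alone it was 1, with 2 higher, beside 245 of all genes lower and 558 higher. With array weights it was 62, beside 4491 of all genes lower, so the 3-day counts depend on the fit. The 2 control groups also differed in these genes. At 1 month 51 of the 181 were lower than at 3 days (28.2%, beside 18.3% of all genes) and 33 higher (18.2%, beside 27.7%).

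By role, some lists had larger and some smaller shares than all genes, which were 18.9% lower and 11.9% higher at 1 month and 7.86% and 11.1% at 3 days. The microtubule inner proteins and tektins had 8 of 28 genes lower (28.6%) and none higher in NiO lungs at 1 month (median -0.25), and other ciliated cell markers had 11 of 40 lower (27.5%) and 2 higher. The dynein arm and docking list had 5 of 20 lower (25%) at 3 days and none higher (median -0.30), and 4 lower (20%) and 2 higher at 1 month. Radial spoke and nexin-dynein genes had 4 of 16 lower (25%) at 3 days and 2 (12.5%) at 1 month, and none higher at either time. Intraflagellar transport and BBSome genes, which carry cargo along the cilium, had 4 of 35 lower (11.4%) and 2 higher at 3 days and 3 lower (8.57%) and 2 higher at 1 month. Dynein arm assembly genes had none of 16 lower and 1 higher at 3 days, and 3 lower (18.8%) and 2 higher at 1 month. Multiciliated cell transcription and centriole amplification genes had 2 of 18 lower (11.1%) and 3 higher (16.7%) at 3 days. At 1 month these genes had 2 lower (11.1%) and none higher. Central pair genes had 1 of 8 lower (12.5%) and none higher at 3 days, and 1 lower and 1 higher at 1 month.

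Individual cilium genes were named by size among those called whose arrays did not overlap. Saxo2, a microtubule-associated protein gene (log2 fold -1.22, SE 0.18, limma adjusted p = 0.000298), Ttll6, a tubulin polyglutamylase gene (-1.51, SE 0.27, 0.00109), Ccp110, the gene of a centriole cap protein (-1.16, SE 0.24, 0.00314), and Spata18 (-1.02, SE 0.17, 0.00076) fell in NiO lungs at 1 month. Erich3 rose there (1.01, SE 0.20, limma adjusted p = 0.00229). Spmip8 had the largest differences and the largest errors: it was higher in NiO lungs at 3 days (log2 fold 3.56, SE 0.87, limma adjusted p = 0.011), lower at 1 month (-2.79, SE 0.81, 0.0167), and higher in 1-month than in 3-day controls (4.50, SE 0.87, 0.000563).

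At 3 days NiO lungs were higher for Gmnn, which encodes geminin (log2 fold 1.19, SE 0.21, limma adjusted p = 0.00101), and for Hyls1, a centriole gene (0.84, SE 0.20, 0.0103). Plk4, a kinase of centriole duplication, was not well above background on any 3-day control array and was at least 2.26-fold higher in NiO lungs (limma adjusted p = 0.000443), the control taken at the lowest signal well above background or its own, whichever was higher. Gmnn and Plk4 also serve dividing cells of any type. Gmnn was higher in 1-month than in 3-day controls as well (log2 difference 2.08, SE 0.21, limma adjusted p = 1.04e-06). Plk4 and Ttll6 were at least 2.85-fold and 2.28-fold higher there (limma adjusted p = 1.23e-05 and 0.000275). Neither was well above background on any 3-day control array. Dync2h1, the heavy chain of the retrograde transport motor, fell (log2 fold -0.84, SE 0.19, limma adjusted p = 0.00697), as did Cfap276 (-1.12, SE 0.25, 0.0054), which was well above background on 1 of 4 NiO arrays.

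After C60 at 3 days 5 cilium genes of 181 were higher and 5 lower (2.76% each, beside 2.94% and 1.99% of all genes). The counts were 0 and 0 without C60 array 1, and 10 and 13 with all 4 C60 arrays. The called genes included Hyls1 (log2 fold 1.07, SE 0.24, limma adjusted p = 0.0141) and Gmnn (1.00, SE 0.25, 0.0226), both higher. Rfx3, a partner factor of FOXJ1, was at least 1.33-fold lower, since it was not well above background on either C60 array (limma adjusted p = 0.00394), and Ccdc170 at least 1.15-fold lower (0.00889). Net signals of negative control spots were 142.7 and 64.4 on these 2 C60 arrays, and 24.3 to 37.4 on the others used. Their shares of spots well above background, 57.4% and 60.7%, were the lowest. The part of this in the 2 differences was not tested. At 1 month C60 lungs had 19 of 181 higher (10.5%, beside 7.29%) and 9 lower (4.97%, beside 12.4%). The counts were 6 and 6 without C60 array 2, 8 and 6 without control array 2, and 30 and 5 after quantile normalization. Among the called genes were Ubxn10 (log2 fold -2.26, SE 0.40, limma adjusted p = 0.00212), Ttll6 (-1.25, SE 0.27, 0.0056) and Ccp110 (-1.05, SE 0.24, 0.00857), all lower. Pltp, from the list of other ciliated cell markers, was higher (log2 fold 0.84, SE 0.22, limma adjusted p = 0.0156).

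Between NiO and C60 lungs at 1 month, 9 of the 181 cilium genes were lower in NiO (4.97%, beside 0.393% of all genes) and none higher (beside 0.833%), with a median of -0.24 beside -0.01 for all genes; 156 of the 181 log2 folds were negative, against 13210 of 24956. The 9 called genes included Pierce1 and Ribc2, microtubule inner protein genes (log2 fold -0.61, SE 0.13, and -0.50, SE 0.10; limma adjusted p = 0.0211 and 0.014), Ccdc103, needed to attach dynein arms (-0.53, SE 0.10, 0.0118), Iqcg, a nexin-dynein complex gene (-0.50, SE 0.10, 0.0211), Spef2 of the central pair (-0.41, SE 0.10, 0.0447) and Morn5 (-0.70, SE 0.16, 0.0333). Leaving out 1 array moved this count between 0 (without C60 array 4 or NiO array 3) and 14 (without NiO array 4). Array weights gave 76 lower and 4 higher, beside 1587 and 1401 of all 24956 genes.

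**Figure D3:**
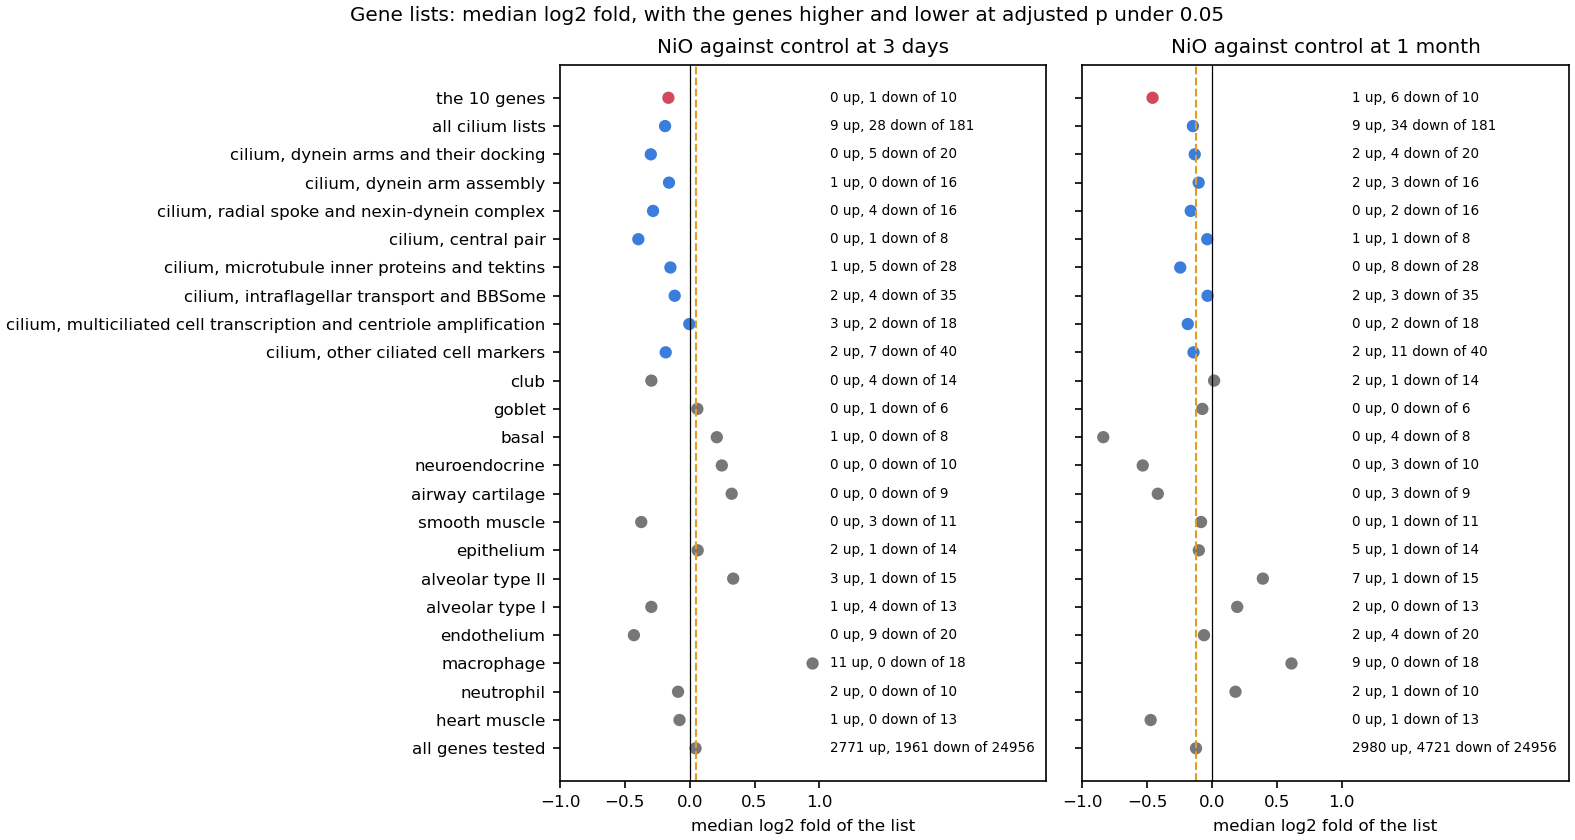
Median log2 fold (horizontal axis) of the 10 genes (red), of the cilium lists without them (blue) and of lists of other cell types (grey), for NiO against control at 3 days and 1 month; the dashed line is the median of all genes tested, and the text in each panel counts genes up and down past the adjusted p threshold of 0.05, of those measured. At 1 month the 10 genes have 6 lower of 10 and all cilium lists 34 lower of 181.

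Markers of other cell types also differed in NiO lungs, and their part in the results on the cilium genes was not tested. At 1 month, beside 18.9% of all genes lower and 11.9% higher, basal cell markers had 4 of 8 measured genes lower (50%) and none higher (median -0.84), with summed linear levels of 1.50 to 2.36 on NiO arrays and 2.08 to 3.64 on control arrays, in units of the array's 75th percentile. Krt5, the keratin of basal cells, fell (log2 fold -1.22, SE 0.31, limma adjusted p = 0.00814). Neuroendocrine markers had 3 of 10 lower (30%, summed levels 12.5 to 14.7 against 17.2 to 20.6), and airway cartilage markers 3 of 9 (33.3%, 1.68 to 2.32 against 1.83 to 3.05). Heart muscle genes had 1 of 13 lower (7.69%, below the share of all genes), with a median of -0.47 (86.8 to 119 against 106 to 185). Macrophage genes had 9 of 18 higher (50%) and none lower (465 to 696 against 286 to 334), and alveolar type II genes 7 of 15 higher (46.7%) and 1 lower, with a median of 0.39 (1424 to 1669 against 1371 to 1615). At 3 days, beside 7.86% of all genes lower and 11.1% higher, endothelial markers had 9 of 20 lower (45%, median -0.43, 406 to 487 against 486 to 523), alveolar type I markers 4 of 13 lower (30.8%) and smooth muscle markers 3 of 11 (27.3%), and macrophage genes 11 of 18 higher (61.1%). After C60 at 1 month, neuroendocrine markers had 2 of 10 lower (20%) and airway cartilage markers 2 of 9 (22.2%), beside 12.4% of all genes. Endothelial markers had 7 of 20 higher (35%) and 1 lower there, beside 7.29% of all genes higher. Club cell markers had 4 of 14 higher (28.6%) and none lower after C60 at 1 month. Basal cell markers had 0 of 8 lower there.

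Club cell markers, secretory neighbours of the ciliated cells, had 2 of 14 higher and 1 lower at 1 month in NiO lungs (median 0.02, summed levels 182 to 267 against 237 to 339). Scgb1a1, their defining secretory protein gene, had a log2 fold of 0.47 (SE 0.19, limma adjusted p = 0.0707) at 1 month and had fallen at 3 days (-0.79, SE 0.21, 0.0166), when 4 of the 14 club cell genes were lower. After C60 at 1 month Scgb1a1 was higher than in controls (log2 fold 0.76, SE 0.19, limma adjusted p = 0.0142). The general epithelial marker Epcam had log2 folds of -0.10 (SE 0.13, limma adjusted p = 0.544) and 0.03 (SE 0.14, 0.904) in NiO lungs at 1 month and 3 days. Its list of 14 measured epithelial markers had 5 higher (35.7%) and 1 lower (7.14%) at 1 month, beside 11.9% and 18.9% of all genes. At 3 days 2 were higher (14.3%) and 1 lower (7.14%), beside 11.1% and 7.86%. No measured gene of these lists was dim on all arrays of either 1-month group.

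Within groups, most of the 10 genes rose and fell together from array to array. In deviations from the group means over 21 arrays, Pearson's r was 0.89 between Dnali1 and Spag6, 0.87 between Dynlrb2 and Tekt4, 0.86 between Tekt4 and Spag6 and 0.85 between Tekt1 and Tekt4, and the median over the 45 pairs was 0.40. Dnai1 and Tekt2 stood apart: their median r with the other genes was -0.35 and -0.14, and with each other r was -0.55. Ak7 had a median r of 0.30. These values describe arrays that share a slide within each group and the same scaling.

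**Figure D4:**
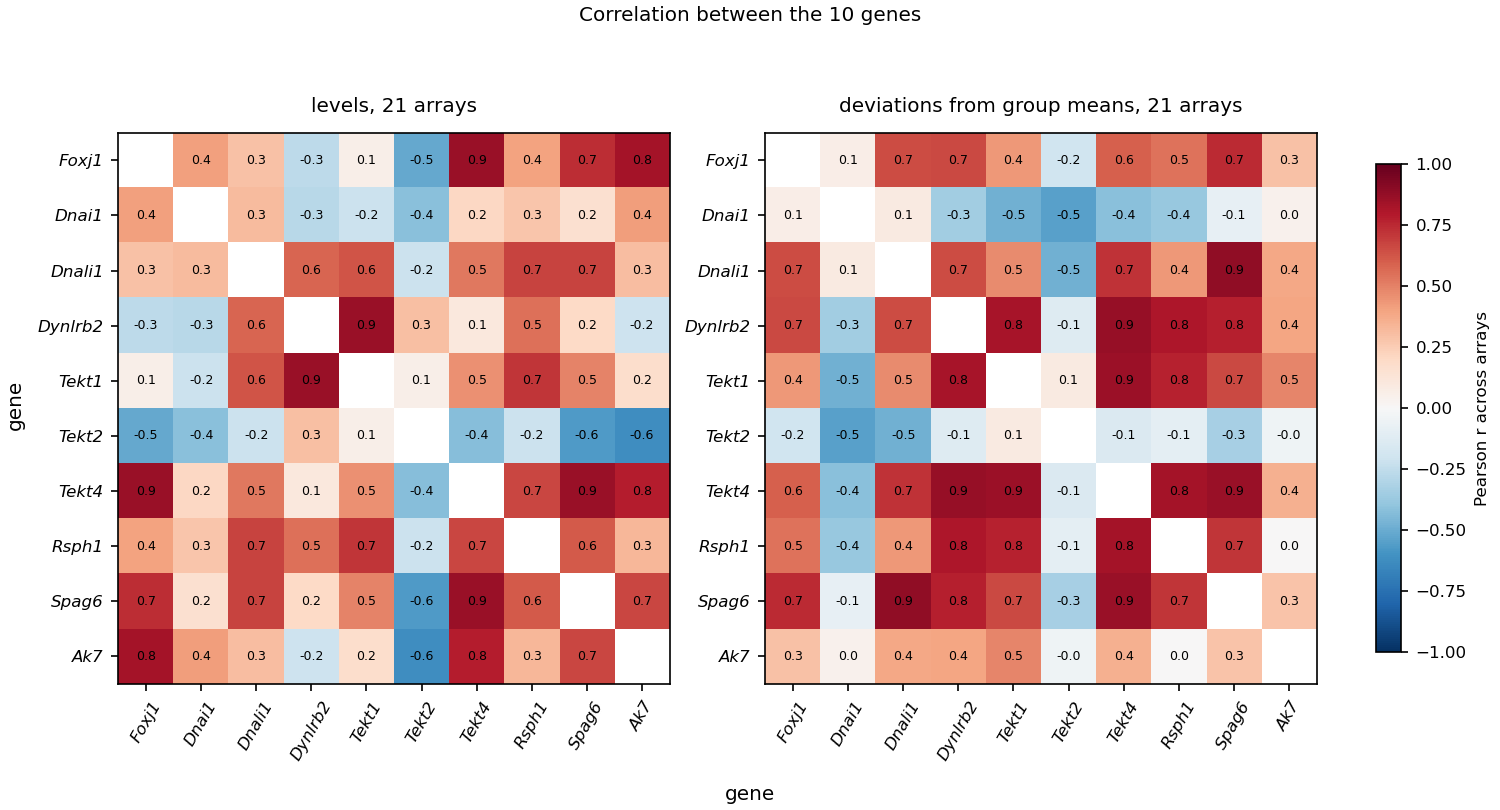
Pearson's r across 21 arrays for each pair of the 10 genes (both axes), from levels (left) and from deviations from the group means (right); colour gives r from -1 to 1. In the right panel the rows of Dnai1 and Tekt2 are near 0 or negative, with r = -0.55 between these 2, while Dnali1 and Spag6 reach 0.89.

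The gene outside the set most like the mean of the 10 standardised genes in these deviations was Mns1, a microtubule inner protein gene, with r = 0.95 over 21 arrays. Drc12 followed at 0.93 and stayed at 0.94 in levels. The other named genes among the 10 nearest were RGD1306603 (0.92), Ttc5 (0.90), Prkcb (0.89), Ccdc181 (0.89) and RGD1560191 (0.88), and 3 were probes without a gene symbol. Of these 10, 2 were on the cilium lists, and of the 100 nearest, 10, where 0.726% of the 24946 genes searched are on those lists. The median r of the 181 cilium genes was 0.29, beside 0.04 for all genes searched, and microtubule inner protein genes had a median of 0.50.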

How the data were processed

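Whole right-lung RNA of 6 groups was measured on 23 Agilent arrays, of which 21 were used. Per the file headers, the authors' Feature Extraction (version 9.5.3.1, grid build rn4) gave spot intensity values, and the processed intensity used here was already background-subtracted. The deposited ratio table (linear, 1 column per group) served as an alternative, its centring being unstated. Control spots and outlier-marked spots were left out, log2 of the processed signal was set to 0 at each array's 75th percentile, and a probe was kept when it was well above background on every array of at least 1 group (28677 of 41012 probes). The kept probe with the highest mean stood for its gene. All 21 arrays entered 1 limma fit (limma 3.58.1, R 4.3.3, lmFit and eBayes, residual df 15) with 6 group means and 9 contrasts, tested on simulated data first. Array number limits the precision.

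The 10 genes, the gene lists and the alternatives were chosen with earlier results of these data known. The text names every one of the 10 genes, up to 6 further cilium genes per comparison with the largest called difference and no overlap of arrays, the 10 genes most like the set, and Scgb1a1, Krt5 and Epcam; Myh11 had no value among the genes tested. Alternatives were background correction, normalization, the filter, the probe rule, the C60 arrays, the groups fitted, array weights and leaving out arrays; the fit without NiO arrays 2 and 3 of day 3 was added after seeing the data. No paired analysis was possible because the labels give no replicate numbers. Promoters are from RefSeq (GRCr8).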

Additional observations from a re-analysis of the deposited data

Results flagged for a closer look

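The effect of NiO on 3 of the 10 genes, and that of C60 on 1, differed between the 2 times in a test of the difference itself. In the limma fit across all genes, the NiO effect at 1 month minus that at 3 days was -0.54 for Dynlrb2 (log2, adjusted p = 0.0476), 0.53 for Tekt2 (0.0212) and 0.72 for Dnai1 (0.0251). The same difference for C60 was 0.76 for Tekt2 (0.0152). The 2 C60 arrays of day 3 that were used only in the alternative with all 4 arrays were set against the 3-day controls: on array 3, 2 of the 10 genes lay above all 3-day controls and 5 below, and on array 4, 1 lay above and 5 below. Of all genes tested, 37.1% lay above and 37.8% below on array 3, and 37.8% and 35.0% on array 4. None of the 40 pairs of a gene and a group of 4 arrays was flagged for an array that stood apart. A pair without a flag does not show that its arrays were alike. Spag6 read -1.99 on 1-month NiO array 4, against -2.66, -2.74 and -2.87 on the others of that group. Array weights ranged from 0.115 (3-day NiO array 1) to 4.42 (1-month NiO array 2).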

How the results depend on the processing

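Over the 59 fitted folds that were followed, 978 values were computed under alternatives, of which 831 kept the direction and the side of the threshold, 71 lost the call, 18 gained one, 37 changed sign and 21 moved. The cause of these changes was not tested. Splits of called genes moved with the scaling: higher and lower genes numbered 2771 and 1961 for NiO against control at 3 days (2228 and 2640 after quantile normalization), 1820 and 3104 for C60 at 1 month (2441 and 1971), 1264 and 679 for NiO against C60 at 3 days (1065 and 984), 3604 and 5760 for the change of the NiO effect with time (5163 and 3449), 1055 and 1543 for that of the C60 effect (1339 and 1237), and 6906 and 4575 for the controls (5396 and 5540).

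Of the 10 genes, NiO at 3 days had 0 called with the compared groups alone and 0 without NiO arrays 2 and 3 of day 3 (a setting chosen after seeing the data), and NiO at 1 month 4 after quantile normalization. C60 at 3 days had 1 after quantile normalization and 0 with the compared groups alone, and C60 at 1 month 1 with array weights. NiO against C60 had 1 at 3 days with normexp, 3 with all 4 C60 arrays and 2 with array weights, and at 1 month 0 without a filter and 9 with array weights. The change of the NiO effect had 5 with normexp, 1 with the compared groups alone, 6 with array weights and 1 without NiO arrays 2 and 3. That of the C60 effect had 2 with array weights, and the control comparison 3 with the compared groups alone.

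Leaving out 1 array gave 1 to 1 of the 10 genes for NiO at 3 days, 5 to 8 for NiO at 1 month, 0 to 1 for C60 at either time, 0 to 2 for NiO against C60 at either time, 0 to 5 for the change of the NiO effect, 0 to 1 for that of C60 and 3 to 5 for the controls.

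Over all genes, array weights gave 10719 calls for NiO at 3 days, 12860 at 1 month, 3254 for C60 at 3 days, 9351 at 1 month, 8431 for NiO against C60 at 3 days, 2988 at 1 month, 14139 for the change of the NiO effect and 6984 for that of C60. The compared groups alone gave 803 for NiO at 3 days, 652 and 3004 for C60 at 3 days and 1 month, and 49 for NiO against C60 at 3 days. Without NiO arrays 2 and 3 of day 3 there were 1575 for NiO at 3 days, 742 for NiO against C60 and 3949 for the change of the NiO effect. All 4 C60 arrays gave 2959 for C60 at 3 days, 5951 for NiO against C60 and 5641 for the change of the C60 effect. Normexp gave 1062 for NiO against C60 at 3 days and 1463 for the change of the C60 effect, the filter on every array 1259 for NiO against C60 at 3 days, and no filter 197 at 1 month. The calls under the settings reported above were 4732, 7701, 1230, 4924, 1943, 306, 9364 and 2598, in the order NiO at 3 days and 1 month, C60 at both, NiO against C60 at both, and the changes of the NiO and C60 effects. Leaving out 1 array gave, in that order, 2210 to 9544, 5163 to 7484, 638 to 905, 2466 to 5118, 443 to 7055, 135 to 342, 7153 to 12978 and 1232 to 2961, and 9163 to 11132 for the controls.

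The folds that changed sign had all missed the threshold. Dynlrb2 was -0.0335 for NiO at 3 days without NiO arrays 2 and 3, and 0.13 with normexp, 0.0023 after quantile normalization and 0.0366 with all 4 arrays for C60 at 3 days. Tekt1 was 0.0852 with normexp and 0.11 with array weights for NiO at 3 days, 0.03 with normexp for C60 at 3 days, and 0.0827 after quantile normalization and 0.089 with array weights for C60 at 1 month. Tekt4 was 0.0303 with array weights for C60 at 1 month, Dnai1 0.0074 with normexp and 0.0785 after quantile normalization for NiO at 1 month, and Spag6 0.0678 with all 4 arrays for C60 at 3 days. Ak7 was 0.16 and 0.0862 with normexp for NiO and C60 at 3 days, and 0.0272 with normexp and 0.33 after quantile normalization for C60 at 1 month. With 1 array left out, Dynlrb2 ranged from -0.0079 to 0.14 for NiO and -0.13 to 0.064 for C60 at 3 days, and Tekt1 from -0.10 to 0.10 and -0.22 to 0.13. At 1 month the ranges after C60 were -0.0915 to 0.11 for Tekt1, -0.18 to 0.0483 for Tekt4, -0.0888 to 0.20 for Dnali1 and -0.17 to 0.0442 for Ak7, and -0.10 to 0.0739 for Dnai1 after NiO. Ak7 ranged from -0.33 to 0.0558 after C60 at 3 days.

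In the authors' deposited table, the linear ratio columns had medians of 0.997 (control), 1.125 (C60) and 1.133 (NiO) at 1 month. In the authors' deposited table, the log2 ratio of NiO over control at 1 month, less that of the column medians, was -0.29 for Foxj1, -0.32 for Dynlrb2, -0.43 for Tekt1, -0.41 for Tekt4, -0.81 for Spag6, -0.36 for Ak7 and 0.55 for Tekt2, the directions of the limma fit. Of the genes not called, Dnali1 (-0.19) and Rsph1 (-0.10) had the direction of the fit, and Dnai1 (0.14, against -0.02) had not. The ratios come from the same arrays and are no second measurement. The 2 C60 arrays and 3 controls of day 3 limit the C60 comparison there, while every probe of the 10 genes was well above background on all 23 arrays. With each array taken to stand for 1 rat, no paired analysis was made.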
